A study of Mus musculus with 20 samples.

Results

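The 150 probes described here kept a similar footpad signal from the end of gestation to postnatal day 5 and had a much lower one in adult mice, in Tabby and in wild-type (WT) animals. They are 150 of the 42006 probes of 60 bases on the array. To be chosen, a probe had to be well above background in the footpad (Cy3) channel on all arrays of the embryonic stage E17.5 and of postnatal day 5 (P5). Its stage means had to differ by less than 1 on the log2 scale between E17.5 and P1 and between P1 and P5. Tabby and WT had to differ by less than 0.5 at P5 and in adults, and the adult level had to be at least 1 below the P5 level. The members were thus chosen by their Cy3 values at E17.5, P1, P5 and the adult stage. These conditions left 2008 probes, and the 150 with the most negative adult minus P5 difference were taken. The level used throughout is the log2 of the background-corrected Cy3 signal minus the median of its array.

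Footpad skin was dissected from Tabby and WT mice, all C57BL6/J, at E17.5, P1, P3, P5 and as adults (P56), and each of the 10 groups was measured on 2 arrays that the labels call biological replicates. The Tabby allele disables ectodysplasin A, a signal that skin appendages need, and Tabby footpads form no eccrine sweat glands, so their footpads are a model of gland-free skin. The labels do not say whether 1 animal or several gave each RNA. On every array the Cy5 channel held a reference RNA, pooled from mouse cell lines and embryonic stem cells and described in the same words for all 20 arrays. Each stage was hybridised on a slide of its own with 4 arrays, so stage and slide cannot be told apart, and between 64.7% and 72.1% of all probes were well above background in Cy3 per array.

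Around birth the skin of the mouse footpad is still being built. Its dermis lays down matrix, vessels and nerves grow into it, and in WT animals the sweat gland buds lengthen and begin to coil, whereas adult skin mainly renews itself. Transcripts that are abundant while a tissue grows are often lower once it is mature. In bulk skin, fewer cells of a type and less RNA per cell cannot be told apart. None of the probes carried a gene name in the files, so they are given by their identifiers. No gene function was attached to them here, and the tissue was not checked against marker genes.

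Some of the 150 probes overlap in sequence. In 7 pairs the probes shared 15 to 59 bases, and in 7 of 7 pairs both probes were among the 150, so that the list covers at most 143 separate stretches of sequence. The adult minus P5 differences within a pair lay 0.003 to 0.48 apart. This difference chose the members, and no other pairs of members were compared, so nothing is read from its closeness. Of the pairs, 3 are shown as examples of different overlaps, with the bases that both probes share in capitals.
Z00059861-1: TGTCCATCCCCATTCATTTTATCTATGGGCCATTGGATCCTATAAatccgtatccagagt
Z00030824-1: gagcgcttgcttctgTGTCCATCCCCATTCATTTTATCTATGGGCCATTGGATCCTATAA
Z00075539-1: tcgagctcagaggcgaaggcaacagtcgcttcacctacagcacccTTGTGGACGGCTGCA
Z00024584-1: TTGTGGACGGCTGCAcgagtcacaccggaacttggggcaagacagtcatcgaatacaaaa
Z00010110-1: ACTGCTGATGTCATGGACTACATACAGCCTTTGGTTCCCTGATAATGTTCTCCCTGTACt
Z00035035-1: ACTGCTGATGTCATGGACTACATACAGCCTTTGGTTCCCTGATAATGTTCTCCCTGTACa
The first pair overlaps by 45 bases and differed by -5.84 and -5.35 between adults and P5. The second abuts over 15 bases and differed by -4.48 and -4.25. The third shares 59 bases and differed by -3.47 and -3.40.

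The last pair and 2 more of the 150 probes could be set on the genome, through the RefSeq windows (assembly GRCm38.p6) that run from 250 bases before to 50 bases after each gene's start. They are shown because no other member shared 30 bases with such a window.
Z00024971-1: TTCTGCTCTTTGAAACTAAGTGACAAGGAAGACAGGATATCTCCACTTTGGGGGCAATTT
Z00031313-1: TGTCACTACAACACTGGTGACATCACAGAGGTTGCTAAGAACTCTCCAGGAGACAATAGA
All 60 bases of Z00024971-1 lie at chr15:10978653-10978712, on the strand opposite to the annotated gene Gm52174 and 134 to 193 bases before its start. The sequences of Z00010110-1, Z00035035-1 and Z00031313-1 each matched windows of 17 genes on chromosome 5, again on the opposite strand, among them the multicopy family of Speer4 genes. Z00010110-1 matched 3 of these windows over its full length and Z00031313-1 matched 5, so their signals cannot be assigned to 1 copy. A shared window gives a position and names no transcript. The probes matched 0 RefSeq miRNA hairpins over 30 bases.

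The base composition of the members was ordinary for this array. The median GC content was 41.7% over the 150 probes, 43.3% over the other 1858 that met the conditions and 43.3% over all probes. The hexamer AATAAA, the usual polyadenylation signal, was searched on the strand of the probe only, and stood in 11 of the 150 (7.33%), in 10.1% of the other 1858 and in 6.93% of all probes. The pentamer ATTTA, found in many short-lived mRNAs, stood in 6 of the 150 (4%), 9.53% of the other 1858 and 7.25% of all probes.

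The median level of the 150 probes stood at 3.81 for E17.5, 3.63 for P1, 3.52 for P3, 3.56 for P5 and -1.46 for adults, so that before adulthood the typical member was far above the middle of its array and in adults below it. Array by array, the median of the members was -1.69 and -1.13 in Tabby adults and -1.52 and -1.52 in WT adults, against 3.48 and 3.51 in Tabby P5 and 3.57 and 3.55 in WT P5 footpads. The adult arrays stood apart from the 16 earlier ones. The genotypes overlapped in adults, and at P5 both Tabby medians were slightly below both WT medians. The adult minus P5 difference had a median of -4.20 and ran from -11.03 to -3.38, beside a median of 0.096 over all probes. In Tabby its median was -4.15 and in WT -4.26, and 141 of the 150 probes differed by less than 0.5 between the genotypes, a closeness that the choice of members favours.

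On each of the 150 probes, every adult array was below every earlier array, by a gap of 1.88 to 8.45 with a median of 3.35. Over all probes on the array 12.0% were separated in this way and 10.9% were 1 or more lower in adults than at P5. In the limma fit of the log2 ratio of footpad over reference, 63.1% of the 32121 probes tested differed between adult and P5 and 30.3% were lower, so that a change between these stages was common. All 150 members were among the lower probes. Adult and P5 levels chose the members, so nothing is read from these counts.

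The name under which these probes were grouped, a program switched off in adults, went further than their detection. In adults 83 of the 150 were well above background on all 4 arrays, 23 on 1 to 3 arrays and 44 on none. Counted per array, 104 and 90 members were above background in WT adults, beside 72.1% and 67.4% of all probes. In Tabby adults 101 and 85 were, beside 71.1% and 64.7%. The share of all probes on all 4 adult arrays, or on none, was not taken. On all 20 arrays, 24666 of the 42006 probes were above background and could be tested, and 83 of the 150 members were. The counts of 83 and 44 are therefore not read as a trait of the members. The 83 had adult levels of -2.16 to 7.57, and 48 of the 150 were still above the adult array median, against 126 at P5. The 83 differed between adults and P5 by -6.23 to -3.40, with a median of -4.05. The probes are therefore best described as steady before and lower in adults, with an adult signal that was lost from detection on all arrays for 44 of them.

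Some members were bright at P5 and remained well above the array median in adults. Z00075380-1, chosen for naming after its values were seen because it was the brightest at P5, had levels of 6.80 and 6.80 in Tabby adults and 6.86 and 6.70 in WT adults. At P5 the same probe had 12.37 and 12.24 in Tabby and 12.35 and 12.27 in WT footpads. It was 45.8-fold lower in adults on the linear scale of the Cy3 signals, and the genotypes overlapped at both stages. Its Cy5 signal differed by -1.41, and its log2 ratio of footpad over reference by -4.17 from processed signals. Z00053992-1, which shares 19 bases with it, had 5.65 and 5.76 in Tabby and 5.68 and 5.60 in WT adults, against 10.98 and 11.15 in Tabby and 11.07 and 10.98 in WT at P5. Z00074477-1, also chosen after its values were seen, had the highest adult level of all members, 7.57, against 11.42 at P5.

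Among the 20 probes with the most negative difference, 7 were well above background on 2 or more adult arrays, 5 of them on all 4. Z00076588-1 had -1.54 and -1.21 in Tabby and -0.93 and -1.20 in WT adults, against 5.22 and 4.97 in Tabby and 4.99 and 4.88 in WT at P5, 75.3-fold lower in Cy3. Its Cy5 signal differed by -1.81 as well, and its log2 ratio of footpad over reference differed by -4.49 from processed signals and by -3.46 after normexp and loess. Z00058533-1 and Z00036223-1 differed by -6.18 and -6.17 and Z00026007-1 by -5.84, each with 4 of 4 adult arrays above background. In Cy5 these probes differed by -2.99, 0.01 and -0.29, and as a log2 ratio of processed signals by -3.25, -6.25 and -5.61. Z00019188-1 (-6.95) and Z00010932-1 (-6.77) were above background on 2 adult arrays each. Their Cy5 differences were -2.72 and 0.07, and their log2 ratios of processed signals differed by -4.30 and -6.90. Z00010932-1 drifted through the earlier stages as well, with levels of 5.21 for E17.5, 5.06 for P1, 4.66 for P3 and 4.29 for P5.

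For the 44 probes above background on no adult array, a difference from P5 is only a bound. Taken in the Cy3 channel after loess and quantile adjustment, with each adult value raised to the lowest signal that counted as above background on its array, they were at least 1.37-fold to at least 80.8-fold lower in adults, with a median bound of 1.92. The bound reached 2-fold for 21 of the 44. These signals carry an added offset of 50, which draws dim probes together. Of the 20 leading probes, 13 were of this kind. Z00039659-1 was at least 18.8-fold lower, Z00076236-1 at least 10.2-fold, Z00047910-1 at least 8.66-fold, and Z00036564-1 and Z00023896-1 at least 6.31-fold and 6.29-fold. Z00044288-1 and Z00022376-1, which were dimmer at P5, were at least 3.83-fold and 3.57-fold lower. These bounds are of Cy3 and not of the ratio of footpad over reference. As a log2 ratio after normexp and loess, Z00039659-1, Z00076236-1, Z00047910-1 and Z00036564-1 differed by -3.34, -3.03, -2.61 and -2.58, each short of its Cy3 bound. Z00023896-1, Z00044288-1 and Z00022376-1 reached theirs, at -3.03, -2.13 and -2.00.

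The limit of 150 cut through a continuum. Z00052268-1 and Z00064166-1 were the last inside, at -3.378 and -3.377, and were above background on 0 adult arrays. Z00017700-1 and Z00021689-1 were the first outside, at -3.376 and -3.373, on 4 and 0 adult arrays.

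A group of 6 probes led the list by a wide margin in Cy3, with differences of -11.03 to -9.58 where the next probe had -7.93. Their Cy5 reference signals were lower in adults too, with differences of -4.97, -3.88, -8.15, -2.92, -2.23 and -1.97 in rank order. For the next probe the Cy5 difference was -5.11. The part of the reference in this margin was not tested. In Cy3 all 6 were well above background on the 16 earlier arrays and on 0 of the 4 adult arrays. In the bounds of the Cy3 channel they were at least 80.8-fold (Z00024237-1), 53.4-fold (Z00070382-1), 37.9-fold (Z00023978-1), 33.9-fold (Z00076319-1), 31.8-fold (Z00022399-1) and 29.5-fold (Z00026015-1) lower in adults. These bounds are of the Cy3 channel and not of the ratio, although the loess and quantile adjustment also used the Cy5 signal. As a log2 ratio of footpad over reference after normexp and loess, Z00023978-1 differed by -2.04 (-1.94 from processed signals), well short of its Cy3 bound. Z00024237-1 and Z00070382-1 differed by -5.37 and -5.50 (-6.17 and -6.44 from processed signals). After normexp and loess both were also short of their Cy3 bounds. The rest of the 6 differed by -5.23 to -5.05 and reached theirs.

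Z00024237-1 gave 4.48 and 3.34 in Tabby and 4.84 and 3.65 in WT footpads at E17.5, 5.35 and 4.72 in Tabby and 4.48 and 5.33 in WT at P1, 4.46 and 4.80 in Tabby and 4.74 and 4.63 in WT at P3, 6.11 and 5.68 in Tabby and 6.30 and 5.76 in WT at P5, and -5.34 and -4.52 in Tabby and -5.47 and -4.95 in WT adults. Its highest values were those of P5, which exceeded every earlier array. Z00070382-1 gave 5.42 and 4.47 in Tabby and 5.67 and 4.71 in WT at E17.5, 5.67 and 5.76 in Tabby and 5.03 and 5.81 in WT at P1, 4.45 and 4.87 in Tabby and 5.03 and 4.82 in WT at P3, 5.55 and 5.13 in Tabby and 5.70 and 5.14 in WT at P5, and -5.36 and -4.52 in Tabby and -5.51 and -4.00 in WT adults. In both probes the genotypes overlapped at every stage, and the second replicate was the lower one in both genotypes at E17.5.

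Z00023978-1 gave 4.91 and 3.79 in Tabby and 5.17 and 4.03 in WT at E17.5, 4.89 and 4.45 in Tabby and 4.52 and 4.92 in WT at P1, 3.57 and 3.85 in Tabby and 4.29 and 3.95 in WT at P3, 5.23 and 4.76 in Tabby and 5.01 and 4.42 in WT at P5, and -5.36 and -4.52 in Tabby and -5.51 and -4.96 in WT adults. Z00076319-1 gave 4.24 and 2.90 in Tabby and 4.65 and 3.47 in WT at E17.5, 5.07 and 4.73 in Tabby and 4.27 and 5.02 in WT at P1, 3.69 and 3.76 in Tabby and 4.21 and 3.96 in WT at P3, 4.93 and 4.65 in Tabby and 4.89 and 4.27 in WT at P5, and -5.36 and -4.48 in Tabby and -5.51 and -4.96 in WT adults. In both probes the WT arrays of P3 were above the Tabby arrays, and at the other stages the genotypes overlapped. Z00022399-1 gave 4.24 and 2.75 in Tabby and 4.47 and 3.20 in WT at E17.5, 4.74 and 4.50 in Tabby and 4.18 and 4.78 in WT at P1, 3.29 and 3.56 in Tabby and 3.95 and 3.69 in WT at P3, 4.94 and 4.61 in Tabby and 4.70 and 4.19 in WT at P5, and -5.33 and -4.49 in Tabby and -5.49 and -4.89 in WT adults. Z00026015-1 gave 4.65 and 3.76 in Tabby and 4.60 and 3.84 in WT at E17.5, 5.01 and 4.72 in Tabby and 4.13 and 5.23 in WT at P1, 3.65 and 3.86 in Tabby and 3.90 and 3.81 in WT at P3, 5.09 and 4.25 in Tabby and 4.53 and 4.09 in WT at P5, and -5.36 and -4.52 in Tabby and -5.51 and -4.96 in WT adults. Z00022399-1 also had both WT arrays above both Tabby arrays at P3, whereas in Z00026015-1 the genotypes overlapped throughout. Apart from a WT value of -4.00 for Z00070382-1, the adult values of the 6 probes lay within 0.1 of the lowest level of any member on the same array (-5.36 and -4.52 in Tabby, -5.51 and -4.96 in WT), so that their order in adults carries no information.

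The 6 probes also varied together among the earlier arrays, which the rule did not ask for. These values are a description, since the 6 were picked by their difference. Over the 16 arrays from E17.5 to P5 the correlation between 2 of them had a median of 0.86 over 15 pairs (0.57 to 0.98), and the arrays share slides and normalization within a stage. Their mean level at E17.5 was 4.66 and 3.50 in Tabby and 4.90 and 3.82 in WT, so the first replicate exceeded the second by 1.16 and 1.08. At P1 it was 5.12 and 4.81 in Tabby and 4.44 and 5.18 in WT, at P3 3.85 and 4.12 in Tabby and 4.35 and 4.14 in WT, and at P5 5.31 and 4.85 in Tabby and 5.19 and 4.65 in WT. All 4 arrays of P3 were thus below all 4 arrays of P1 and of P5. Among the other 144 members, Z00022376-1 (r = 0.95) and Z00067828-1 (r = 0.95) followed the mean of the 6 with a correlation of 0.8 or more.

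Z00039659-1, the seventh probe, was flatter. It gave 4.09 and 3.87 in Tabby and 4.01 and 3.97 in WT at E17.5, 3.88 and 3.69 in Tabby and 3.82 and 3.54 in WT at P1, 4.00 and 3.73 in Tabby and 4.16 and 4.15 in WT at P3, 3.77 and 3.78 in Tabby and 3.80 and 4.06 in WT at P5, and -4.51 and -3.71 in Tabby and -3.75 and -4.33 in WT adults. Before adulthood its 16 arrays stayed within 1 of each other.

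The reference channel was lower on the adult arrays too for many of these probes. The labels describe the same reference RNA for all arrays, yet in Cy5, scaled in the same way, 37 of the 150 probes (24.7%) were 1 or more lower in adults than at P5. The share was 1.57% over all probes and 3.55% (66) among the other 1858 that met the conditions. A Cy5 signal 1 or more higher was seen in 0 of the 150 and in 1.76% of all probes. Cy5 was well above background on all 20 arrays for 91 members, of which 22 (24.2%) were 1 or more lower. For 17 members it was above background on no array, and 1 of these was 1 or more lower. A signal that dim has little room to fall and is poorly measured. The median Cy5 difference was -0.36 over the members and 0.006 over all probes. Cy5 values had no part in the rule, but Cy3 and Cy5 are read from the same spots. No test was run on this difference.

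The median Cy5 level of the members was -0.38 and -0.46 in Tabby adults and -0.39 and -0.36 in WT adults, against 0.99 and 1.00 in Tabby P5 and 0.96 and 1.04 in WT P5 footpads. It lay between 0.58 and 1.22 on the 16 earlier arrays, which did not overlap with the adult ones. The Cy5 difference was uneven across members. Where the Cy3 level at P5 was at most 2 above the Cy5 level, 1 of 41 probes had a Cy5 signal that was 1 or more lower in adults. Where it was 2 to 4 above, 20 of 63 had, and where it was over 4 above, 16 of 46 had. The shares over all probes in these classes were not taken.

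The largest Cy5 difference belonged to Z00023978-1, -8.15. Its Cy5 level was -5.39 and -4.58 in Tabby and -5.60 and -5.25 in WT adults, against 3.34 and 3.01 in Tabby and 2.96 and 2.49 in WT at P5. Cy5 was above background on its 16 earlier arrays and on 0 adult arrays, as it was for Z00024237-1, Z00039659-1, Z00047910-1 and Z00029741-1. In the 6 leading probes the Cy5 level also followed the Cy3 level over the 16 earlier arrays (median r = 0.90, range 0.55 to 0.97 over the 6). Part of this rests on dim signals. On the earlier arrays Cy5 was above background 0 times for Z00026015-1, 5 times for Z00076319-1 and 9 times for Z00022399-1. Z00059763-1 and Z00024507-1, named after their values were seen, differed in Cy3 by -4.17 and -3.68 and in Cy5 by -4.54 and -3.86. Their log2 ratios of processed signals were accordingly 0.30 and 0.12 higher in adults than at P5. The part of the reference channel in the adult difference was not tested.

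Members with and without a lower reference are described side by side, with the Cy3 difference that chose them. In the 113 probes whose Cy5 was less than 1 lower, the Cy3 difference between adults and P5 had a median of -4.13 (-7.08 to -3.38), and in the 37 others -4.90 (-11.03 to -3.44). Z00036223-1 differed by -6.17 in Cy3 and 0.01 in Cy5, and Z00010932-1 by -6.77 and 0.07. As a ratio of footpad over reference after normexp and loess, the adult minus P5 difference had a median of -2.59 over the 150, with 127 of them 1 or more lower and 0 not lower.

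The P3 arrays had no part in choosing the members. At P3 all 150 probes were well above background on 4 of 4 arrays, as they were at P1. The P3 level minus the mean of the P1 and P5 levels had a median of 0.12 (-1.20 to 0.89), and 149 probes were within 1 and 134 within 0.5. The other 1858 probes that met the conditions had a median of 0.11, and all probes 0.026. The P3 level was above both neighbours for 67 probes and below both for 17. Shares over all probes were not taken for these counts. The lower and upper quartiles were -0.004 and 0.26 in the members and -0.005 and 0.24 in the other 1858. Over all probes they were -0.12 and 0.15. The counts are therefore not read as a trait that sets the members apart from the other 1858.

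The lowest relative P3 levels belonged to the leading probes and their followers. Z00022376-1 had levels of 0.12 for E17.5, 0.80 for P1, -0.27 for P3, 1.05 for P5 and -5.09 for adults. Z00022399-1, Z00067828-1 and Z00023978-1 had P3 levels 0.96, 0.95 and 0.86 below the mean of P1 and P5. At the other end, Z00022712-1 was higher at P3 by 0.89, Z00024971-1 by 0.69, Z00028793-1 by 0.68 and Z00036564-1 by 0.62. Z00024971-1 was highest in the middle of the series, with levels of 4.43 for E17.5, 4.98 for P1, 5.87 for P3, 5.38 for P5 and -0.72 for adults.

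Between E17.5 and P5 the members drifted within what the rule allowed. P5 was below E17.5 for 94 of the 150, by 1 or more for 23, and it was above by 1 or more for 3. Shares over all probes were not taken for these counts. The median of P5 minus E17.5 was -0.18 in the members, -0.17 in the other 1858 and -0.07 over all probes. The drift is therefore not read as a trait that sets the members apart from the other 1858. Z00070710-1, chosen after its values were seen, had the largest decline before adulthood, with levels of 0.73 for E17.5, -0.04 for P1, -0.35 for P3, -1.03 for P5 and -4.71 for adults. Z00024237-1 had the largest increase, 1.88.

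Differences of the members between Tabby and WT before adulthood were tested at E17.5, P1 and P3, where the rule did not use the genotype difference. The rule did ask for a footpad signal above background on every E17.5 array of both genotypes. It also asked for a small genotype difference at P5 and in adults. Probes lost in Tabby at E17.5 or with a lasting genotype difference were thus left out beforehand. The choice of members therefore favours few calls, which cannot show that the members are independent of the mutation. On the log2 ratio of footpad over reference, 0 of the 150 differed between Tabby and WT at any of these stages or in their mean at a limma adjusted p under 0.05. Over all probes, the share called came to 0.0125% for E17.5, 0.0342% for P1, 0.237% for P3 and 0.355% for the mean, so 0 of 150 is close to the share over the array. At an unadjusted p under 0.05, 21 members differed at E17.5, 1 at P1, 11 at P3 and 18 in the mean. Over all probes 11.5%, 4.27%, 9.4% and 11.1% passed that limit in these 4 comparisons, so the members were near or below the share over the array at P1, P3 and in the mean, and at 21 of 150 somewhat above it at E17.5. The median difference, Tabby minus WT, came to -0.26 for E17.5, 0.03 for P1, -0.06 for P3 and -0.10 for the mean.

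At E17.5 the direction depended on 1 array and on the scaling. The median log2 ratio of the members was 2.34 and 1.34 on the Tabby arrays and 2.28 and 2.30 on the WT arrays, so replicate 2 of Tabby stood apart. The scanner's processed signals gave 3.60 and 3.50 for Tabby and 3.41 and 3.44 for WT, and in Cy3 alone the members' median difference was 0.07. Without Tabby replicate 1, the median difference of the members at E17.5 was -0.62, beside -0.09 over all probes. Without Tabby replicate 2 it was 0.10, beside 0.006. In the mean of the 3 stages the members had -0.22 without replicate 1 (all probes -0.02) and 0.02 without replicate 2 (all probes 0.003). The sign thus depended on which Tabby array was kept, and with replicate 2 alone the members were lower by more than the array. The 2 replicates of this group correlated at 0.959 over the probes tested, the lowest value of the 10 groups.

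Z00023896-1, the eighth probe of the list, had the smallest p at P3. Its level was 0.83 and 1.42 in Tabby and 3.49 and 2.57 in WT at P3, with no overlap. It gave 1.26 and 1.68 in Tabby and 1.72 and 0.86 in WT at E17.5, 2.21 and 2.26 in Tabby and 1.82 and 1.83 in WT at P1, 1.84 and 2.03 in Tabby and 2.80 and 1.72 in WT at P5, and -5.28 and -4.44 in Tabby and -5.40 and -4.82 in WT adults. Tabby exceeded WT at P1 and WT exceeded Tabby at P3, and the genotypes overlapped at the other stages. Its difference at P3 was -1.54 ± 0.37 in log2 ratio (SE, limma adjusted p = 0.148), and under 29 alternatives it ran from -2.01 to -1.08, with adjusted p from 0.00803 to 0.9998 and under 0.05 in 4.

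A similar P3 pattern was seen in Z00024784-1, named after its values were seen, with levels of 4.35 and 4.33 in Tabby and 6.15 and 5.39 in WT (difference -0.88 ± 0.23 in log2 ratio, SE, limma adjusted p = 0.202). Z00075603-1, named in the same way, had levels of 4.17 and 4.34 in Tabby and 6.04 and 5.27 in WT at P3. In both probes the first WT array was the highest and the genotypes did not overlap. The reference channel had the same split at P3. Its level was 2.18 and 1.92 in Tabby and 2.85 and 2.43 in WT for Z00024784-1, 1.84 and 1.65 in Tabby and 2.47 and 2.13 in WT for Z00075603-1, and -2.39 and -2.53 in Tabby and -2.10 and -1.81 in WT for Z00023896-1. Its part in these differences was not tested. In the mean of E17.5, P1 and P3 the smallest p belonged to Z00008529-1, with -0.58 ± 0.17 (SE, limma adjusted p = 0.223). At E17.5 it belonged to Z00030512-1, with -0.71 ± 0.18 (SE, limma adjusted p = 0.433), and at P1 to Z00018546-1, with 0.33 ± 0.13 (SE, limma adjusted p = 0.9998). Each of these 3 was singled out after its p was seen.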

How the data were processed

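Footpad RNA (Cy3) and reference RNA (Cy5) of 20 arrays were compared in 10 groups taken from the labels. Per the file headers, signals came from Agilent Feature Extraction 9.5.1.1 (protocol GE2-v5_95_Feb07), which gives mean, background and processed intensity per dye and a log10 ratio. In the deposited table of 25030 probes (99 members), values on a log10 scale had column medians of 2.53 to 2.59. They followed footpad over reference of the scanner files plus a constant per probe for 64.3% of probes (within 0.001), and what centring the authors applied to the others is not known. No filter or alignment step beyond this is given in the sources used here.

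The members and all lists were chosen with earlier results of these data known. Planned gene lists could not be used, since 0 probes had a gene name. Levels are log2 processed Cy3 intensity minus the array median, over 42034 probe spots, leaving out 1417 control spots. For tests, mean intensities were corrected with normexp (offset 50) and loess in limma 3.58.1 (R 4.3.3), with spots marked as outliers set to missing (1 to 43 per array), 1 coefficient per group and Benjamini-Hochberg adjustment across all 32121 probes above background in Cy3 on at least 2 arrays. Tests were two-sided at an adjusted p of 0.05. Number of arrays limits the precision, with 2 per group. P-values measure the spread between these arrays, pooled for each probe over all 10 groups. Over the probes tested, the SD within a group ran from 0.08 (WT P3) to 0.30 (Tabby E17.5). A p-value at 1 stage thus does not measure the spread of that stage alone. The fit was tested on simulated data. Same-numbered Tabby and WT arrays deviated with correlations of -0.07 to 0.22 by stage, not above 0.1 in each, so the numbers were not taken as pairs. Probes were named by rank: the 20 most negative differences, the probes at the limit, and the 4 highest and 4 lowest at P3 relative to P1 and P5. Other names were chosen after their values were seen. Alternatives covered scale, filter, weights, block and each array left out. The computations outside limma used Python 3.11.15.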

Additional observations from a re-analysis of the deposited data

How the results depend on the processing

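The adult minus P5 median of the members, -4.20 in Cy3, was -3.83 as a ratio of processed signals, -3.72 in the deposited table (99 members), -3.01 in Cy3 without background subtraction and -2.59 after normexp and loess. The last 2 carry background or an offset that compresses dim values. Leaving out each P5 or adult array gave -4.28 to -4.18. As a ratio of processed signals Z00059763-1 turned to 0.30 (0.30 in the deposited table) and Z00024507-1 to 0.12, since their reference signal was lower in adults as well. The rule applied without each array kept 105 to 150 of the members, fewest without Tabby adult replicate 1, and 145 with the 75th percentile. For Tabby minus WT, members called were 4 at P3 and 2 in the mean without background subtraction (1.21% and 1.01% of all probes), 1 at P1 and 3 in the mean with the deposited table (0.576% and 1.73%), 1 at P3 with each stage fitted alone (0.981%) and 17 at P3 with array weights (9.62%), and the cause was not tested. Leaving out 1 array gave 0 to 92 at E17.5, 0 at P1, 0 to 1 at P3 and 0 to 70 in the mean (the 92 and 70 beside 25.5% and 15.6% of all probes), where groups left with 1 array are assumed to vary like the others. The replicate block called 0 members in each of these comparisons and 20305 probes between adult and P5, against 20257. This count ran from 14429 to 22835 over all alternatives. Alternatives chosen after seeing the data left 83 to 88 members detected on every adult array and 44 to 46 on none when 1 adult array was left out, and 36 to 38 with a lower reference. Without background subtraction the last count was 26, beside 0.381% of all probes. The planned gene lists gave no value. Signal over background limits the adult differences of 44 probes to bounds.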

Other observations

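Probes outside the 150 shared the course of the 6 leading ones. Among the 26119 other probes that were above background on all E17.5 and P5 arrays, 14 followed the mean of the 6 over the 16 earlier arrays with a correlation of 0.9 or more, a threshold chosen after seeing the data. All 14 were 1 or more lower in adults than at P5, by -10.25 to -1.18 with a median of -8.18, and 7 were above background on 0 adult arrays. Over all probes on the array 10.9% were 1 or more lower. The shares among the 26119 were not taken, and the Cy5 signal of the 14 was not examined. Of the 14, 9 differed by 1 or more between E17.5 and P1, which the rule did not allow. Z00024612-1 had levels of 4.16 for E17.5, 5.58 for P1, 4.41 for P3, 5.64 for P5 and -4.61 for adults. Z00075955-1 had levels of 4.59 for E17.5, 5.75 for P1, 4.67 for P3, 5.68 for P5 and -3.84 for adults. The correlation rests on arrays that share slides, and no p is given for it.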
